A study of Mus musculus with 55 samples.

Results

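Of 41 wild-type pyramidal neurons sampled through a patch pipette from the mouse prefrontal cortex, 16 gave at least 1 read of C1qa and 25 gave none. C1qa encodes a chain of complement C1q and marks microglia, so the division separates pipette samples by a transcript that a neuron is not known for. The cells were selected on measured values, their reads of C1qa. C1qa itself is therefore given as a description, and so is every other gene, because the labels do not tie cells to animals and each side of the division counts as 1 sample. No test was made.

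Each library holds the RNA of the cytosol drawn from 1 neuron. The labels divide the wild-type neurons, which carry no knockout, into 15 D1 and 26 D2 cells from animals aged 28 to 35 days, names used for dopamine receptor types. A further 13 cells that passed quality control came from Fmr1 knockout mice, a model of fragile X syndrome, as 6 D1 and 7 D2 cells. Knockout D1 cell 3 came from an animal aged 31 days, and the other knockout cells from animals aged 32 days. The sources used here give neither the way in which D1 and D2 cells were told apart nor the strain of either genotype.

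Microglia are the resident macrophages of the brain. They survey the tissue with fine processes that touch neuronal cell bodies and synapses, and in the healthy cortex they are the main source of C1q, whose 3 chains are encoded by C1qa, C1qb and C1qc. C1q starts the classical complement cascade and is known for tagging synapses that microglia remove during development. A pipette that reaches a neuron through tissue can pass such processes, and a library can then hold RNA of more than 1 cell.

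C1qa lies on chromosome 4 of GRCm38 from 136895917 to 136898803 on the minus strand. C1qc (136889804 to 136893065) and C1qb (136880129 to 136886187) follow on the same strand, and no exon of the 3 genes overlaps an exon of another annotated gene in GENCODE vM21. The 250 bases before RefSeq's starts (GRCm38.p6) of C1qb and of Fcer1g, the signalling chain of Fc receptors, are shown because these genes differed most of the microglia genes beside C1qa over all cells. RefSeq's table gave no entry for C1qa. Its starts of C1qc, Fcer1g and the receptor gene Cx3cr1 lie inside the genes as GENCODE places them. The windows of C1qc and Fcer1g therefore lie partly inside the gene, and that of Cx3cr1 wholly. The windows of C1qc and Cx3cr1 are not shown. Capitals mark GAGGAA, the core that the macrophage factor PU.1 binds, or TTCCTC, its reverse complement. At least 1 of these lies in 23.3% of 32851 promoter windows of that length, and it is a match of letters only. The window of C1qb holds 1, those of Fcer1g and of the receptor gene Cx3cr1 hold 0, and that of C1qc, not shown, holds 1.
C1qb, chr4:136886201-136886450, minus strand: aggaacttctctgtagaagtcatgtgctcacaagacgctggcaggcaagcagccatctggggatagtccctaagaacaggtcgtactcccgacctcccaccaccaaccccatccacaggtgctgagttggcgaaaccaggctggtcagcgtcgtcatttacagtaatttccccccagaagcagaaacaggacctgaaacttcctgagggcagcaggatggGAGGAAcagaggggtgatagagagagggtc
Fcer1g, chr1:171234350-171234599, minus strand: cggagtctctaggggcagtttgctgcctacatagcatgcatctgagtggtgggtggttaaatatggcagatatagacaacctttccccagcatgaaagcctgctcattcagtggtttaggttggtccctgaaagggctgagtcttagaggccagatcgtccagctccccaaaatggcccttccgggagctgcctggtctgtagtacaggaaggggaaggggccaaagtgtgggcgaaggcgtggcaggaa

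C1qa was read in 39.0% of the wild-type cells (exact Clopper-Pearson 95% interval 24.2 to 55.5%, which covers the counting of these cells only). It was present in 9 of 15 D1 cells and in 7 of 26 D2 cells. Among cells with C1qa its level ranged from 0.201 to 1917 CPM (the gene's counts scaled to a common library size of 1000000 counts) with a median of 153 CPM. Just inside the rule lay D2 cell 25 with 1 read, followed by cells with 68 and 105 reads, and the highest had 3219. The 25 cells outside the rule had 0 reads, which at their depths allows a level of up to between 0.281 and 11.5 CPM, 3 counts being the limit that a count of 0 allows. Apart from the cell with 1 read the division was thus between 0 and at least 68 reads.

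The number of genes with a read differs strongly between these libraries and goes with the division. Cells with C1qa had 1588 to 9938 genes (median 6430) and cells without it 1511 to 9406 (median 3285). Of 22 cells in which at least 4000 genes were read, called gene-rich here after a bound used in earlier work on these data, 11 had C1qa. Of the 19 gene-poor cells, 5 had it, 4 of them D1 cells. Total counts overlapped, from 422978 to 7046858 in cells with C1qa and from 260943 to 10673072 in cells without it. Each comparison is therefore given over all 41 cells and again within the gene-rich cells, whose genes per cell overlapped between 11 cells with C1qa (median 7421) and 11 without (median 6987).

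Among gene-rich cells, those with C1qa had, by the median, reads of more of the other microglia genes than those without, and the groups overlapped. Of 24 further microglia genes, the gene-rich cells with C1qa had a read of 4 to 22 (median 10) and those without it of 0 to 11 (median 4). At least 10 of the 24 were read in 7 of 11 gene-rich cells with C1qa and in 1 of 11 without. The summed level of the 24 genes was 0.0261 to 0.970% of the library in gene-rich cells with C1qa (median 0.110%), against 0.000 to 0.0988% in those without it (median 0.0175%). The 2 ranges overlapped between 0.0261 and 0.0988%, and 6 of the 11 cells with C1qa lay above all 11 cells without.

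**Figure D1:**
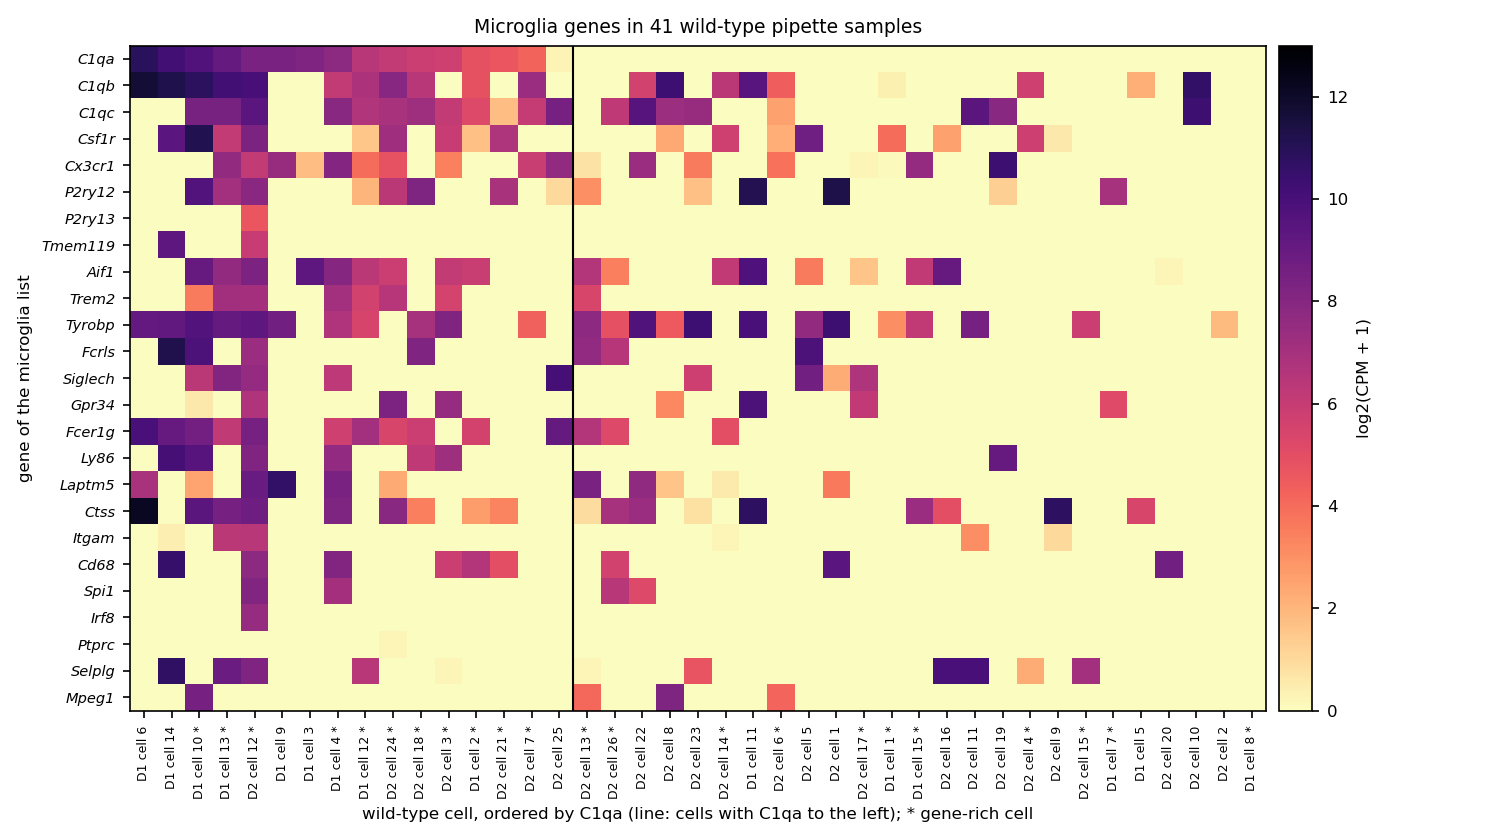
Heat map of log2(CPM + 1) of C1qa and the 24 further microglia genes (rows) in the 41 wild-type cells (columns, ordered by C1qa; cells with C1qa lie left of the line and gene-rich cells carry an asterisk). D2 cell 12 fills 22 of the 24 rows, while most cells right of the line hold a few scattered genes.

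In gene-poor cells the microglia RNA did not follow C1qa in this way. The 14 gene-poor cells without C1qa gave 0.000 to 0.749% of their counts to the 24 microglia genes (median 0.185%), which overlapped the 5 gene-poor cells with C1qa (0.0608 to 1.14%, median 0.218%). A share of at least 0.1% was reached by 11 of these 14 cells and by none of the 11 gene-rich cells without C1qa. The number of microglia genes behind the share was small in these 14 cells, 1 to 7 of 24. A high share was thus carried by few genes at a time in gene-poor cells without C1qa, such as P2ry12 at 2483 CPM in D2 cell 1, and which of them was read varied from cell to cell. Of the 5 gene-poor cells with C1qa, D1 cell 14 had the highest share and 10 of the 24 genes, and the other 4 had 2 to 5. Over the 41 cells 24 of the 25 cells without C1qa still had a read of at least 1 of the 24 genes. A library without reads of C1qa thus commonly had reads of other microglia genes.

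**Figure D2:**
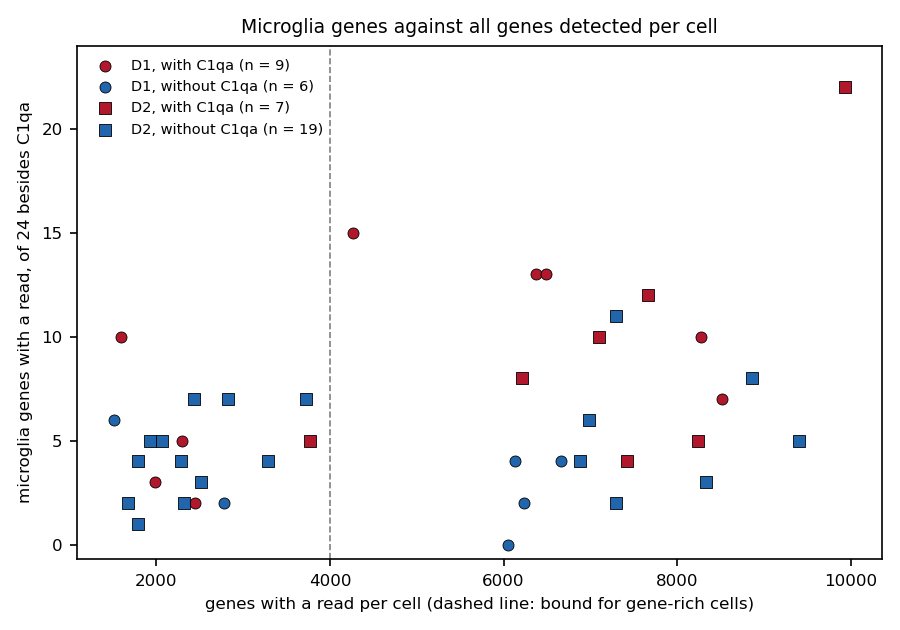
Microglia genes with a read (of 24 besides C1qa) against all genes with a read in each wild-type cell; circles are D1 and squares D2 cells, red with and blue without C1qa. Right of the dashed line at 4000 genes the red points reach 22 and the blue ones 11, and left of it red and blue points mix below 11.

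The difference for a gene is the mean over cells of log2(CPM + 1) in cells with C1qa minus that in cells without, each cell counting equally. It mixes how often a gene was read with how high it was. Of 11059 genes that averaged at least 1 CPM and were read in at least 10% of the 41 cells, 28.2% were higher by at least 1 log2 unit in cells with C1qa and 2.34% lower, with a median of 0.51. Most genes therefore leaned towards the cells with C1qa. Within gene-rich cells the background was closer to balance, 15.8% higher and 21.1% lower with a median of -0.13. Of the 24 microglia genes 18 passed the same bounds, which favour genes read in either group. Over all cells 15 of the 18 were higher by at least 1 log2 unit and none lower (median 1.81), and within gene-rich cells 18 of 18 were (median 2.86). Without D2 cell 12 the gene-rich count was 13 of 18 and the median 2.47. In gene-poor cells 6 of the 18 were higher and 2 lower (median 0.82), against a background of 16.2% higher and 13.8% lower.

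In gene-rich cells the other 2 chains of C1q followed C1qa closely. C1qb was read in 11 of 16 cells with C1qa, where its median was 96.8 CPM and its highest level 3294 CPM. Among the 25 cells without C1qa it was read in 9, with a median of 0 and a highest level of 1611 CPM. The ranges overlapped, and the difference was 3.64 on the log2 scale, or 4.88 in gene-rich cells. C1qc was read in all 11 gene-rich cells with C1qa and in 2 of 11 without, a difference of 5.94. In gene-poor cells the order was the opposite, with C1qc in 1 of 5 cells with C1qa and in 6 of 14 without (difference -2.01). Across the 22 gene-rich cells the Spearman correlation of the level with that of C1qa was 0.91 for C1qc and 0.74 for C1qb. Over all 41 cells it was 0.27 for C1qc and 0.49 for C1qb. Cells share depth and zeros, so these values are descriptions.

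The chains were not read in a fixed proportion. Reads of C1qb per read of C1qa ranged from 0.305 to 8.94 (median 2.09) in the 11 cells with both. Reads of C1qc per read of C1qa ranged from 0.0952 to 3.66 (median 1.25) in the 11 cells with C1qc and at least 10 reads of C1qa. All 3 chains were read in 9 of the 41 cells, every one of them gene-rich, and at least 1 chain in 29. Of the 25 cells without C1qa, 4 had both other chains, 5 C1qb only and 4 C1qc only. D2 cell 25, with its 1 read of C1qa, had 1817 reads of C1qc and none of C1qb.

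**Figure D3:**
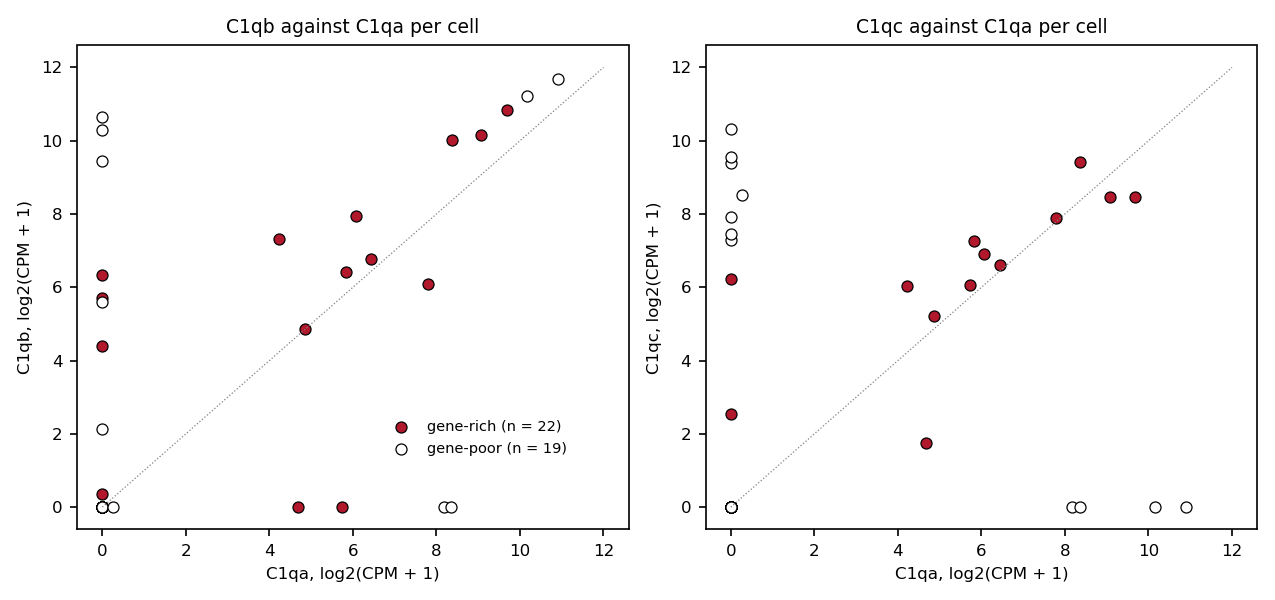
Level of C1qb (left) and C1qc (right) against C1qa in each wild-type cell, all as log2(CPM + 1), with gene-rich cells filled and gene-poor cells open and a dotted line of equal levels. Gene-rich cells with C1qa lie near the line for C1qc, 1 cell far below it apart, while gene-poor cells in the C1qc panel lie along both axes, with 1 chain at or near 0.

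Of the microglia genes besides C1qa, Fcer1g differed most over all cells. It was read in 11 of 16 cells with C1qa (median 54.9, highest 967 CPM) and in 3 of 25 without (median 0, highest 95.8 CPM). Its difference of 4.39 (3.29 in gene-rich cells) and its Spearman correlation with C1qa of 0.68 over 41 cells exceeded those of every other gene besides C1qa that the naming rule considered. Tyrobp, the adaptor that pairs with Trem2, was read in 11 of 16 cells with C1qa (median 113 CPM) and in 13 of 25 without (median 2.59 CPM, difference 1.79). Within D2 cells the difference of Tyrobp was 0.37, below the median of 1.25 over all genes there. Trem2, a lipid-sensing receptor, was read in 7 of 16 cells against 1 of 25 (highest 138 against 41.4 CPM, difference 2.43). Ly86, a partner of a Toll-like receptor family member, was read in 6 against 1 (difference 2.70).

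Signals between neurons and microglia were mixed. Of 20 genes of ligands that neurons make and of their microglial receptors 12 passed the bounds. Over all cells 5 of these were higher by at least 1 log2 unit and none lower (median 0.93, beside 28.2% of all genes higher). In gene-rich cells 4 were higher and 1 lower (median 0.11, beside 15.8% higher, 21.1% lower and -0.13 for all genes). Among the ligands Cx3cl1 (fractalkine) differed by 0.65, Il34 by 0.04, and Cd200 by 0.24 over all cells and -1.23 in gene-rich cells. Csf1r, the receptor that microglia need to survive, was read in 9 of 16 cells with C1qa and 8 of 25 without (difference 2.36). Cx3cr1, the fractalkine receptor, was read in 10 against 8 (difference 2.19), although its mean level was 62.2 CPM with C1qa and 67.1 CPM without. P2ry12, the ADP receptor of surveying microglia, differed by 1.65 over all cells and by 3.46 in gene-rich cells. Within D1 cells P2ry12 was lower with C1qa (-0.94) and within D2 cells higher (3.42). Gpr34, a lysophospholipid receptor of the same family, likewise stood at -2.43 among D1 and 2.72 among D2 cells. Aif1, the calcium-binding protein IBA1, was read in 9 cells of each group (difference 2.28), and Ctss, a lysosomal protease, also in 9 of each (difference 1.82).

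Some genes that define microglia in tissue were nearly absent from these libraries. Tmem119 was read in 2 cells with C1qa and in none without, and P2ry13 and the transcription factor Irf8 each in 1 cell with it. Ptprc (CD45) was read in 1 cell with C1qa, at 0.179 CPM, and Spi1, which encodes PU.1, in 2 cells of each group. Mpeg1 was read in 1 cell with and 3 without C1qa. These 6 genes did not pass the bounds above.

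D2 cell 12 held 22 of the 24 microglia genes, lacking only Ptprc and Mpeg1. It was also the library with the most genes of all, 9938, and gave 0.659% of its counts to the 24 genes. C1qb stood at 1039 CPM, C1qc at 690, Tyrobp at 627 and Aif1 at 319 in this cell. Its neuronal RNA was present as well, with Slc17a7, the vesicular glutamate transporter of cortical pyramidal cells, at 736 CPM and Snap25, a synaptic fusion protein, at 2061 CPM. Mbp, the myelin basic protein, stood at 18.9 CPM and the astrocyte connexin Gja1 at 0 in the same library. Other glial genes were read there, with 12 of 23 astrocyte genes summing to 815 CPM and 5 of 18 oligodendrocyte genes to 653 CPM. D1 cells 10, 13 and 4 followed with 15, 13 and 13 microglia genes.

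The 2 libraries with the highest C1qa levels were gene-poor D1 cells without Slc17a7. D1 cell 6 (1917 CPM of C1qa, 2301 genes) and D1 cell 14 (1147 CPM, 1588 genes) had 0 reads of Slc17a7, whereas it was read in 14 of 16 cells with C1qa and in all 25 without. Snap25 was read in both, at 2802 and 2160 CPM. D1 cell 14 also had Gja1 at 995 CPM. Mitochondrial genes made up 44.8% of the counts of D1 cell 6 and 25.5% of those of D1 cell 14, and their part in these levels was not tested.

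Genes that microglia turn on when activated were higher beside the resting set. Apoe, the lipid carrier that astrocytes also make, was read in 15 of 16 cells with C1qa (median 483 CPM) and 19 of 25 without (median 20.4 CPM). The highest levels were 6278 and 5341 CPM, so the ranges overlapped over most of their span, and the difference was 2.92 (4.25 in gene-rich cells). Within D1 cells the difference of Apoe was 7.35. Within D2 cells it was 0.64, below the median of 1.25 over all genes there. The chemokine Ccl4 was read in 7 against 2 cells (difference 3.22) and the tetraspanin Cd63 in 10 against 4 (difference 2.89). Of 20 genes of this list 7 passed the bounds. Over all cells and in gene-rich cells 5 were higher by at least 1 log2 unit (medians 2.17 and 2.63). The shares of all genes that were higher were 28.2% and 15.8%. Il1b, Tnf and Spp1 were each read in 1 cell with C1qa and in none without, and Itgax, Clec7a and Gpnmb in no wild-type cell.

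Genes that microglia share with other brain cells showed a smaller lean. Of 20 such genes 16 passed the bounds, and 10 were higher over all cells and 14 in gene-rich cells (medians 1.20 and 1.52). Of all genes 28.2% were higher over all cells and 15.8% in gene-rich cells. The lysosomal protease Ctsl differed by 2.89, and Rgs10, a regulator of G-protein signalling, by 2.62. Class II antigen presentation was represented by H2-DMa alone among measured genes, read in 7 against 2 cells (difference 2.19). Of 5 measured genes of class I presentation 1 was higher over all cells, B2m, the light chain of class I molecules (1.76). The median of the 5 was 0.31, below the 0.51 of all genes. Within D2 cells B2m differed by 0.93, below the 1.25 of all genes there.

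Complement beyond C1q was sparse. Of 22 genes of the cascade, its receptors and its inhibitors besides C1qa, 9 passed the bounds. Both over all cells and in gene-rich cells 5 were higher with C1qa (medians 1.12 and 1.01), beside 28.2% and 15.8% of all genes. C1qb and C1qc themselves were among the 5 in both sets of cells. C1ra, C1s1 and C2, the enzymes next in the classical pathway, were read in no wild-type cell. C3, the central component, was read in 1 cell with C1qa at 1.59 CPM, and C4b in 3 cells without it, up to 4.75 CPM. Clu, a fluid-phase inhibitor that astrocytes and neurons make, differed by 1.12 over all cells and by 2.60 in gene-rich cells. Csmd1, a neuronal membrane inhibitor, differed by 1.28 over all cells, although by -0.56 in gene-rich cells.

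Markers of other blood and border cells gave little. Of 12 genes of border macrophages only Stab1 passed the bounds (difference 0.39), and 5 had no read in any wild-type cell. Of 20 genes of lymphocytes, granulocytes and red cells 4 passed, none with a difference of 1 log2 unit or more over all cells. In gene-rich cells, where 15.8% of all genes were higher, 3 of them exceeded it. These were the globins Hba-a1 (1.09), Hbb-bs (1.05) and Hbb-bt (1.45), Hbb-bt being read in 5 cells with C1qa and in none without. Their highest levels in cells with C1qa were 195, 764 and 196 CPM, all in D1 cell 10. The genes of this list summed to 1362 CPM in that library, more than in any other wild-type cell. How far the 3 differences rest on D1 cell 10 was not tested. Of 4 measured interferon response genes none reached 1 log2 unit in either set of cells.

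Astrocyte genes were higher more often than all genes were, of which 28.2% were higher over all cells and 15.8% in gene-rich cells. Of 23 astrocyte genes 20 passed the bounds and 11 were higher by at least 1 log2 unit, over all cells (median 1.16) and in gene-rich cells (median 1.45), with none lower. Slc1a2, the main glutamate transporter of astrocytes, was read in all 16 cells with C1qa (median 300.3 CPM) and in 20 of 25 without (median 109.6 CPM, difference 2.31). Aldoc, a glycolytic enzyme, differed by 2.72, and the metallothionein Mt2 by 1.79 (4.26 in gene-rich cells). Defining genes were less regular, Aqp4 being read in 2 cells with and 4 without C1qa, and Gja1 in 5 and 2. This held in D1 cells, where 13 of 20 were higher (median 1.80) beside 16.9% of all genes (median -0.18). In D2 cells 7 of 20 were higher (median 0.27) beside 56.8% of all genes (median 1.25).

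Among 18 oligodendrocyte genes 11 passed, 4 were higher over all cells (median 0.66), near the 28.2% and 0.51 of all genes, and 5 in gene-rich cells (median 0.96, beside 15.8% and -0.13). Trf, the iron carrier that oligodendrocytes make in the brain, was read in 11 cells with C1qa (median 47.6, highest 955 CPM) and in 6 without (highest 33.2 CPM). Its difference of 3.85 was the fourth of the genes named for size, and no exon of another gene overlaps Trf except the predicted gene Gm20425. Mbp differed by 2.59 (3.82 in gene-rich cells), from 15 of 16 cells with a median of 374 CPM against 18 of 25 with 80.3 CPM. In gene-rich cells the medians of astrocyte and of oligodendrocyte genes thus lay above that of all genes. How much each cell type contributed to a library was not tested.

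Genes of neurons in general had medians below that of all genes over all cells and in gene-rich cells, but not within D2 cells. Of 23 pan-neuronal genes 6 were higher and 2 lower over all cells (median 0.32), and 1 higher and 1 lower in gene-rich cells (median -0.27). Of all genes 28.2% were higher and 2.34% lower over all cells, and 15.8% higher and 21.1% lower in gene-rich cells. Snap25 was read in all 41 cells, with medians of 2438 CPM with C1qa and 2546 CPM without (difference 0.01). Camk2a, the kinase of excitatory neurons, had medians of 127 and 108 CPM (difference 0.38). The 17 pyramidal genes had a median of 0.33 over all cells and -0.04 in gene-rich cells. The medians of both lists changed sign between kinds of neuron, as that of all genes did. In D1 cells the pan-neuronal and pyramidal medians were -0.87 and -1.39, below the -0.18 of all genes. In D2 cells they were 1.55 and 1.87, above the 1.25 of all genes. Single genes stood apart, with Rbfox3 (NeuN) at 2.49 over all cells and 1.27 in gene-rich cells, Map2, of the dendritic cytoskeleton, at 1.47 and 0.48, and the tubulin Tubb3 at -2.09 and -1.01.

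Of 17 genes of inhibitory interneurons 9 passed the bounds, and none differed by 1 log2 unit over all cells (median 0.47). In gene-rich cells 3 were higher and none lower (median 0.67), beside 15.8% of all genes higher and 21.1% lower. The 3 were Cck, a neuropeptide gene (2.22), Pvalb, which encodes parvalbumin (1.40), and Gad1, an enzyme of GABA synthesis (1.35). Cck was read in 14 of 16 cells with C1qa and in 23 of 25 without, so it was common to both groups. Pvalb reached at most 26.5 CPM in cells with C1qa. Within D1 cells Cck (-1.45) and Pvalb (-0.45) were lower with C1qa and Gad1 (1.49) higher. The source of these reads was not tested.

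**Figure D4:**
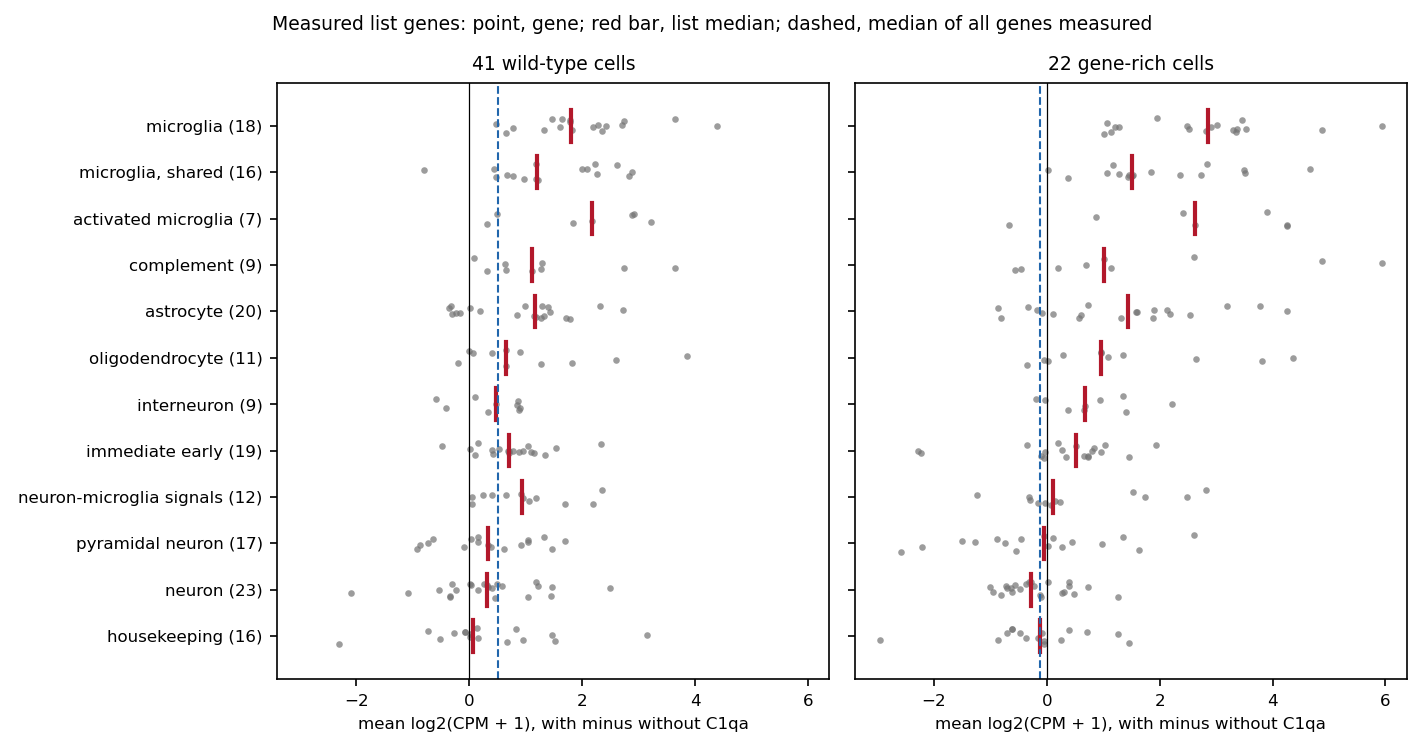
Difference in mean log2(CPM + 1), cells with minus cells without C1qa, for each measured gene (points) of 12 lists with the list median (bar), over 41 wild-type cells (left) and 22 gene-rich cells (right); the number of measured genes is in brackets and the dashed line is the median of all genes. The microglia median moves from 1.81 to 2.86 between the panels while the neuron median moves from 0.32 to -0.27.

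The division lies differently within D1 and D2 cells. Of 9 D1 cells with C1qa 5 were gene-rich, against 4 of 6 without it, and of 7 D2 cells with C1qa 6 were, against 7 of 19. Within D2 cells 56.8% of the 11059 genes were higher with C1qa and 2.3% lower (median 1.25), and within D1 cells 16.9% were higher and 28.4% lower (median -0.18). Pyramidal genes had a median of -1.39 in D1 and 1.87 in D2 cells. The microglia list had medians of 2.63 and 1.98, above the median of all genes in both kinds. Among gene-rich cells alone the microglia median was 3.27 in D1 cells (5 with, 4 without C1qa; all genes 0.03) and 2.35 in D2 cells (6 with, 7 without; all genes -0.14).

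An age group shares no animal with another, and C1qa was found at 7 of 8 ages. It was read in 2 of 3 cells at 28 days, 2 of 10 at 29, 4 of 10 at 30, 3 of 6 at 31, 0 of 2 at 32, 1 of 2 at 33, 2 of 4 at 34 and 2 of 4 at 35 days. At each of the 7 ages the mean log2 level of the 24 microglia genes was higher in cells with C1qa than in cells without, by 0.40 at 35 days to 3.81 at 29 days. At 31 days (0.65) and 35 days it was below the median difference of all genes between the same cells, 2.79 and 0.57. At 29 days it was 6.03 among D2 cells, where D2 cell 12 was the 1 cell with C1qa, and 1.80 among D1 cells. Within a kind the order was the opposite at 31 days in D1 cells (-0.78) and at 30 days in D2 cells (-0.28).

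**Figure D5:**
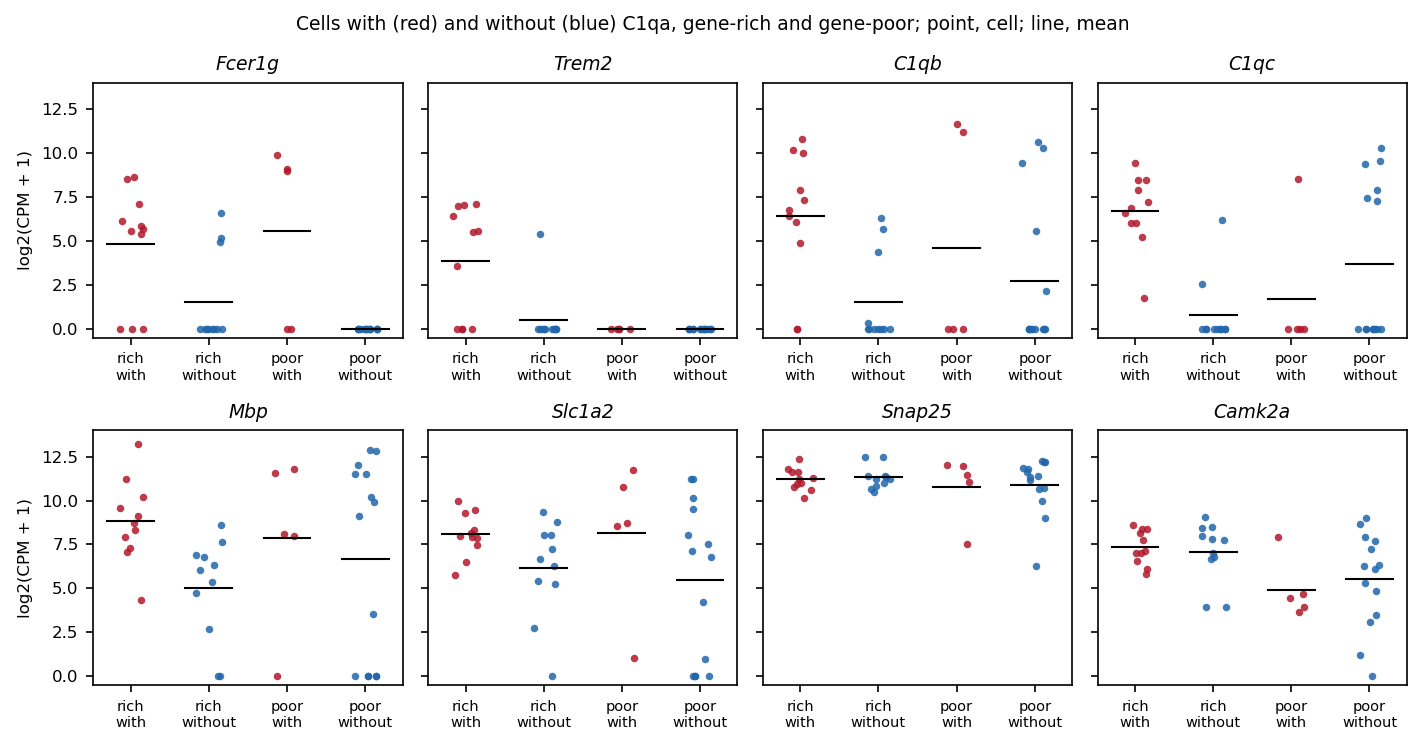
Level of 8 genes as log2(CPM + 1) in each wild-type cell (points) with the group mean (line), for gene-rich and gene-poor cells with C1qa (red) and without (blue). Fcer1g, Trem2, C1qb and C1qc are mostly at 0 in gene-rich cells without C1qa, whereas Snap25 and Camk2a overlap between the groups.

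The genes named for the size of their difference were not mainly immune. Besides Fcer1g, Trf and C1qb the 12 higher genes were Cacna2d3 (a calcium channel subunit, 4.07), Snx5 (3.94), Pdcl3 (3.77), Ppa1 (3.74), Spire1 (an actin nucleator, 3.70), Aplp2 (3.69), Dhx30 (3.64), Eef1b2 (a translation factor, 3.53) and Ccdc12 (3.49). In gene-rich cells several of these were much closer, Dhx30 at 0.40 and Snx5 at 1.13, while Trf stood at 4.36 and C1qb at 4.88. Reads of Snx5, Dhx30 and Eef1b2 may be shared with genes whose exons overlap them, since the strand setting of counting is not given. The same limit holds for other genes named here, among them Csf1r, Cx3cr1, P2ry12, Itgam, H2-DMa and Hspd1, whose exons also overlap those of another gene. The 12 lower genes included Reep1 (-2.42), which shapes the endoplasmic reticulum, Hprt (-2.31), a purine salvage enzyme, the proteasome subunit Psma6 (-2.02) and the mitochondrial chaperone Hspd1 (-1.93). Hprt was read in 8 of 16 cells with C1qa and in 19 of 25 without.

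The genes whose levels were most like that of C1qa across the 41 cells mixed both kinds. After Fcer1g (Spearman correlation 0.68) came the neuronal transcription factor Pou6f1 (0.55), Spire1 (0.54) and the phosphatase Dusp7 (0.53), with C1qb and Trf at 0.49. In the 22 gene-rich cells Spire1 stood at 0.29, whereas Trf stood at 0.69 and C1qb at 0.74. The 11 microglia genes read in at least 25% of the cells had a median of 0.30 over all cells and 0.60 in gene-rich cells, beside 0.06 and -0.06 for all 8515 such genes. The lowest values were those of Khdrbs3 (-0.42), an RNA-binding splicing regulator, and Polr2k (-0.40), an RNA polymerase subunit, with the neuronal tubulin Tubb3 at -0.40. Points share library depth and many zeros.

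The knockout cells had no part in the division above, and C1qa was read in 3 of 13. The microglia list, over the genes measured in wild-type cells, had a median of 1.50 in these 3 against the other 10, with 15 of 18 above 0 and a median of 0.43 over all genes. Those below 0 were Fcer1g (-0.17), Tyrobp (-0.19) and Itgam (-1.11). Fcer1g, first among wild-type cells, was read in 1 of the 3 knockout cells with C1qa and in 3 of the 10 without. Knockout D2 cell 1 had 1175 reads of C1qa and 19 of the 24 microglia genes, and the other 2 cells with C1qa had 4 each. Knockout D1 cell 4 had no read of C1qa but 2193 of C1qb, 2614 of C1qc and 20 of the 24 genes. A library with nearly the whole list could thus lack C1qa.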

How the data were processed

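Per the labels' protocols, a patch pipette took up the cytosol of 1 neuron for each Nextera XT library. The submitters' processing notes name Trimmomatic, STAR, featureCounts and GRCm38, without settings or the strand counted. The authors deposited whole-number read counts for 22800 gene symbols, and a second count table by Ensembl identifier. The authors' deposited normalized signal values were found to be the counts of each cell times 1 factor per cell (0.373 to 51.5, relative spread within a cell 8.2e-16). Of each file, 2 columns matched no sample label and were not used.

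The members, lists and thresholds were chosen with earlier results of these data known. From the counts, CPM and the difference of mean log2(CPM + 1) were computed; genes had to average at least 1 CPM and be read in at least 10% of the 41 wild-type cells. Totals ranged from 260943 to 10673072 counts per cell, and 3 counts are the limit that a count of 0 allows; PCR reads are not independent molecules, so limits and intervals cover counting error only. Named were all microglia and complement genes with a read, up to 3 genes of largest difference from each other list (1 such gene is not reported here), 12 genes per direction by difference with the same sign in D1, D2 and gene-rich cells (averaging at least 10 CPM in a group and read in at least 33.3% of it), and the 12 highest and 6 lowest correlations with C1qa; further list members are given as counts or singled out after their values were seen. Of 357 list symbols 355 were found. Alternatives were subsets of cells, each age left out, TMM factors (edgeR 4.0.16, R 4.3.3), the deposited normalized values, pseudocounts of 0.1 and 10, other filters, thinning to 200000 reads, a bound of 10 reads and the Ensembl table (22570 of 22880 identifiers with a symbol). A knockout D1 cell with failed quality control was left out. Positions came from GENCODE vM21 and promoter sequence from RefSeq. The procedure was tested on simulated data. Python 3.11.15, numpy 2.4.6, pandas 2.3.3, scipy 1.17.1 and matplotlib 3.10.9 were used.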

Additional observations from a re-analysis of the deposited data

Results flagged for a closer look

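In the knockout groups of 6 and 7 cells some libraries stood far from the rest of their group by a gap-to-range rule. Its rate of about 1 of 20 groups by chance holds for normally distributed values only. Many values here are 0 and several sets flag the same cell, so that rate cannot be used for these sets. Of 16 sets of values looked at, 7 stood apart. Knockout D1 cell 4 had 20 of the 24 microglia genes (next highest 8), which made up 0.298% of its counts (next 0.0578%), and C1qc at 505 CPM (next 50.4 CPM), although it had no read of C1qa. Knockout D1 cell 1 was the only one of its group with C1qa, at 100.4 CPM, and a group with 1 value above 0 always meets the rule. Knockout D2 cell 1 had 19 of the 24 microglia genes (next 8) and C1qc at 421 CPM (next 5.78 CPM). Knockout D2 cell 5 had the fewest genes with a read, 2904 (next 6194). These libraries form no part of the comparison of wild-type cells.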

How the results depend on the processing

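The number of cells with C1qa was 15 at a bound of 10 reads, and the microglia median lay between 1.07 and 2.86 over the alternatives that kept both kinds of neuron, above 0 in each. In gene-rich cells only it was 2.86, with 1749 genes higher and 2334 lower and a median correlation with C1qa of 0.60. In D1 cells only 1868 genes were higher, 3136 lower and the pyramidal median was -1.39; in D2 cells only 6276 were higher. A pseudocount of 0.1 gave 4963 higher and 599 lower genes, a pseudocount of 10 gave 846 and 44, and the authors' normalized values gave 407 lower. Among named genes that differed by at least 1 log2 unit over all cells, the direction reversed for Csmd1 in gene-rich cells (-0.56), for P2ry12 (-0.94), Tbr1 (-0.23), Neurod6 (-1.38), Nptx1 (-1.0) and Nr4a1 (-0.26) in D1 cells, and for Tubb3 in D2 cells (1.59); the cause was not tested. Named genes with smaller differences changed sign too, among them Gpr34 (-2.43) and Cck (-1.45) in D1 cells and Selplg (-0.61) and Khdrbs3 (0.83) in D2 cells.

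Leaving out the cells of 1 age, or, chosen after seeing the data, 1 cell with C1qa, gave between 1628 and 5324 higher and 147 and 1055 lower genes, of which 5324 and 147 without the cells of 29 days, 1628 and 1055 without those of 31 days, and 612, 396 and 425 lower genes without those of 30 days, those of 35 days and D2 cell 12. The list medians ranged over 1.31 to 2.20 for microglia (11 to 16 of 18 genes higher), 2.47 to 3.13 for microglia in gene-rich cells (13 to 18 genes), 0.59 to 1.39 for astrocytes, 0.22 to 0.90 for oligodendrocytes, -0.26 to 0.90 for neurons and -0.45 to 1.34 for pyramidal neurons. No paired analysis was possible because the replicate numbers were given in accession order and no result comes from a test. The median of all genes moved from 0.51 to 0.47 after thinning over the same genes, to 0.61 over the genes that then passed the bounds, and to 0.43 with the authors' values. Both the depth and the number of genes read in a cell limit what a 0 means. A cell could be gene-poor at high depth, such as D2 cell 20 with 2324 genes at 5993694 counts.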
